A study of Mus musculus with 7 samples.

Results

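Chromatin accessibility was examined at the genes of the laminins, type IV collagen, the nidogens, perlecan and the integrins, 33 genes in all, in WT and Smad2/3 DKO EpiLCs. The members are the ATAC-seq sites whose midpoint lies within 50 kb of a curated RefSeq TSS of 1 of these genes, and the rule used no accessibility value. It gave 160 of the 75880 listed sites. Each gene had at least 1 site and at most 13, with a median of 4, and 3 of the sites belong to 2 members at once, namely to Col4a1 and Col4a2 or to Col4a3 and Col4a4. A site centred within 1 kb of a member's TSS was called a promoter site, and one from 1 to 50 kb away a flank site, which gave 29 promoter and 131 flank sites.

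Basement membranes are thin sheets of matrix on which epithelia sit. Laminins, which are trimers of an alpha, a beta and a gamma chain, form one network in them and collagen IV forms another, and nidogens and perlecan tie these networks together. Integrins are receptors made of an alpha and a beta chain that hold cells to this matrix, to fibronectin and to other ligands, and signal from it. In the early mouse embryo the epiblast lies on a basement membrane whose laminin it contacts through integrins containing the beta1 chain. Smad2 and Smad3 are the transcription factors that carry the signal of Nodal, activin and TGF-beta into the nucleus, and latent TGF-beta is itself activated by integrins that contain the alphav chain.

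EpiLCs are epiblast-like cells that model the primed state. Here they were grown from 129/Sv//Ev ESCs kept in LIF with the inhibitors PD0325091 and CHIR99021, by 48 h of culture in 20 ng/ml activin A and 12 ng/ml Fgf2 on dishes coated with fibronectin, so both genotypes received an activator of the Smad2/3 pathway and an integrin ligand. The groups are 3 differentiations of the WT line, clone CCE, and 3 of a Smad2/3 DKO line, clone KT15.1F6, in which an exon 1 deletion of Smad3 was made by genome editing on top of an older targeted allele of Smad2. With 1 clone per genotype, clone and genotype cannot be told apart. A further library came from 100 ng of WT genomic DNA treated with the Tn5 transposase, which in ATAC-seq cuts open DNA and adds sequencing adapters to it. The table gives each site's concentration, the log2 of the authors' mean of normalized reads in each genotype, and holds no value per library. The depth and the spread between differentiations are therefore unknown here, no difference could be tested, and a site was counted as lower or higher in DKO where DKO minus WT was past a fold of 1.5, which is 0.585 on the log2 scale.

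The targeted genes were examined first. The Smad3 promoter site had a concentration of 5.42 in WT and of -0.10 in DKO, which is the lowest DKO value listed for any site. A site 1131 bp upstream of Smad3 had 2.81 and 0.34, and one 45456 bp upstream had 6.09 and 6.73. The authors deleted a region around Smad3 exon 1, so near the promoter closed chromatin and missing DNA cannot be told apart here. The Smad2 promoter site had 8.35 in WT and 8.28 in DKO. Promoters of genes used in the primed state were open in both genotypes. The promoter site of Pou5f1 had a concentration of 7.71 in WT and 7.72 in DKO, that of Fgf5 had 6.63 and 6.86, that of Sox2 had 6.25 and 6.63, and that of Dnmt3b had 5.66 and 5.63. Otx2, the other gene of this list, had no site within 1 kb of a TSS among the rows used. These values cover promoters only. The authors report lower Fgf5 expression in DKO EpiLCs and decreased accessibility at this gene.

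Sequences of some of the flank sites past the fold are shown first, and whether their letters bear on the differences was not tested. They are the central 300 bases of the sites that were lower in DKO by the largest differences, at Itgb1, Itgb8, Lama2 and Itgb3, and of the Itgb5 site that was higher, among sites with a mean concentration of at least 4, which is 16 normalized reads, and outside annotated exons. The other higher sites above that level, at Lama5 and Nid1, overlap annotated exons and are not printed. Coordinates and bases are those of GRCm38.p6, the assembly named mm10, on the plus strand, and capitals mark letters of 10 transcription factor motifs found on either strand.
Itgb1 intron, chr8:128690036-128690335: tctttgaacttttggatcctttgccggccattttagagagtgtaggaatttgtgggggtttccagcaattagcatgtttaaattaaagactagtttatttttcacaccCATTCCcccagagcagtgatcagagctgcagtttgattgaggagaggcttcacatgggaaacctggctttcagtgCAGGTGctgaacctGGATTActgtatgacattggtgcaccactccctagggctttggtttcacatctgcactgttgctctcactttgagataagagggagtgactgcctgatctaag
Itgb8 intron, chr12:119219301-119219600: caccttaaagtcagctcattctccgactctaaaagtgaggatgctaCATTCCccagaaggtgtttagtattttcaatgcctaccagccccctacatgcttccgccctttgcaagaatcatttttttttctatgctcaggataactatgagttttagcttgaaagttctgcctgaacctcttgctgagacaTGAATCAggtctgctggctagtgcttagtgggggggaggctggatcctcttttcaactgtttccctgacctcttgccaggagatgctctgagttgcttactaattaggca
Lama2 intron, chr10:27591551-27591850: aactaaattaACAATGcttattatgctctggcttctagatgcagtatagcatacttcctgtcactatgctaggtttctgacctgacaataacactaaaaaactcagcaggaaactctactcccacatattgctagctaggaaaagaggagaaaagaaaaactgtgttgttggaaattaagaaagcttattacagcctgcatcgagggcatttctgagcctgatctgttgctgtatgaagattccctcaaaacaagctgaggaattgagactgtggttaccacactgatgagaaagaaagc
Itgb3 intron, chr11:104624886-104625185: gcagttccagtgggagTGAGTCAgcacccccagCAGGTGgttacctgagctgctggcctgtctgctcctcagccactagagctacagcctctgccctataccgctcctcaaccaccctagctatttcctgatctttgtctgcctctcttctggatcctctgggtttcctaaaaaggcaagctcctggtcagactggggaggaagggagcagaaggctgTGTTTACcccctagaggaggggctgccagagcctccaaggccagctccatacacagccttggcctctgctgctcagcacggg
Itgb5 intron, chr16:33844216-33844515: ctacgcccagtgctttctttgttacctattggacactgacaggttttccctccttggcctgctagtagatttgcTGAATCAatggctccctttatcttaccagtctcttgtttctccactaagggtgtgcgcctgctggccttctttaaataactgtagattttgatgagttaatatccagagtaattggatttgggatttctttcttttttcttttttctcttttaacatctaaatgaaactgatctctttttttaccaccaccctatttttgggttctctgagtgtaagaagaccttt
In capitals are the Tead letters GGAATG, the E-box CACCTG and the Otx2 letters GGATTA at Itgb1, Tead and AP-1 letters (TGANTCA) at Itgb8, Sox letters (CATTGT) at Lama2, AP-1, E-box and forkhead letters (TGTTTAC) at Itgb3, and AP-1 letters at Itgb5, or their reverse complements. These strings are short and common. Of all listed sites, 17.6% held the Tead letters, 26.8% the E-box, 13.2% the Sox letters, 8.74% the AP-1 letters, 8.71% the Otx2 letters and 4.51% the forkhead letters in a window of the same length.

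A second pair of sequences comes from Itgav and was chosen after its values were seen. It is shown because these were the only sites of the 131 flank sites whose window held the Smad palindrome GTCTAGAC, and both were lower in DKO. Capitals mark the palindrome in both windows, overlapping AP-1 and Tead letters in the first, and the Essrb letters TCAAGGTCA in the second. The second window opens with a short unit repeated in tandem, and whether this affects the read counts there was not tested.
Itgav upstream, chr2:83714696-83714995: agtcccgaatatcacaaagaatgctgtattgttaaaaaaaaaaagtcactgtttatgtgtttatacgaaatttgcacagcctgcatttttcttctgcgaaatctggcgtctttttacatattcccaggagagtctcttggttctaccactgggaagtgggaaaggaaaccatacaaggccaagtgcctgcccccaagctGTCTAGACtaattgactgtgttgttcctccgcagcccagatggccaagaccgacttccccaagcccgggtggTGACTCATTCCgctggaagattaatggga
Itgav upstream, chr2:83713506-83713805: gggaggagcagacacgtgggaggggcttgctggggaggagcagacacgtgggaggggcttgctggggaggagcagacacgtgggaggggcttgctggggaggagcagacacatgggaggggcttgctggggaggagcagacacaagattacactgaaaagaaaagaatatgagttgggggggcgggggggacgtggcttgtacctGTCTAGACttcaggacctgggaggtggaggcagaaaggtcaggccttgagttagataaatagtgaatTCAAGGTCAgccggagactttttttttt
The palindrome was found in 0.224% of all listed sites and 0.251% of all flank sites. Of the 82 flank sites of all genes that held it, 28.0% were lower and 9.76% were higher in DKO. Their median difference was -0.16 on the log2 scale. Over all flank sites the shares were 16.7% and 9.92%, with a median of -0.09. Of all 170 listed sites that held the palindrome, 18.2% were lower and 8.24% were higher, with a median of -0.06. These shares were close to the 16% and 8.51% of the table as a whole, where the median was -0.08. A match describes the letters of these windows and was not tested for binding.

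Over all members, 20 of 160 sites (12.5%) were lower and 7 (4.38%) were higher in Smad2/3 DKO than in WT EpiLCs. Over all listed sites, 16% were lower and 8.51% were higher, so neither share at these genes exceeded that of the table as a whole. The median difference, DKO minus WT on the log2 scale, was -0.12 at the members and -0.08 over all sites. Lower sites lay at 15 of the genes and higher sites at 6, of which Lama4 and Nid1 had both, and 14 genes had no site past the fold. Col4a1, Col4a2, Col4a3, Col4a4, Lama3, Lamb2, Lamb3, Lamc1, Itga1, Itga3, Itga4, Itga6, Itgb4 and Itgb6 were the genes without one. The values nearest to the threshold from outside were 0.55 at a site upstream of Itgb3 and -0.54 at an intronic Lama3 site, and from inside -0.60 at Itga7 and -0.62 at Nid1.

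**Figure D1:**
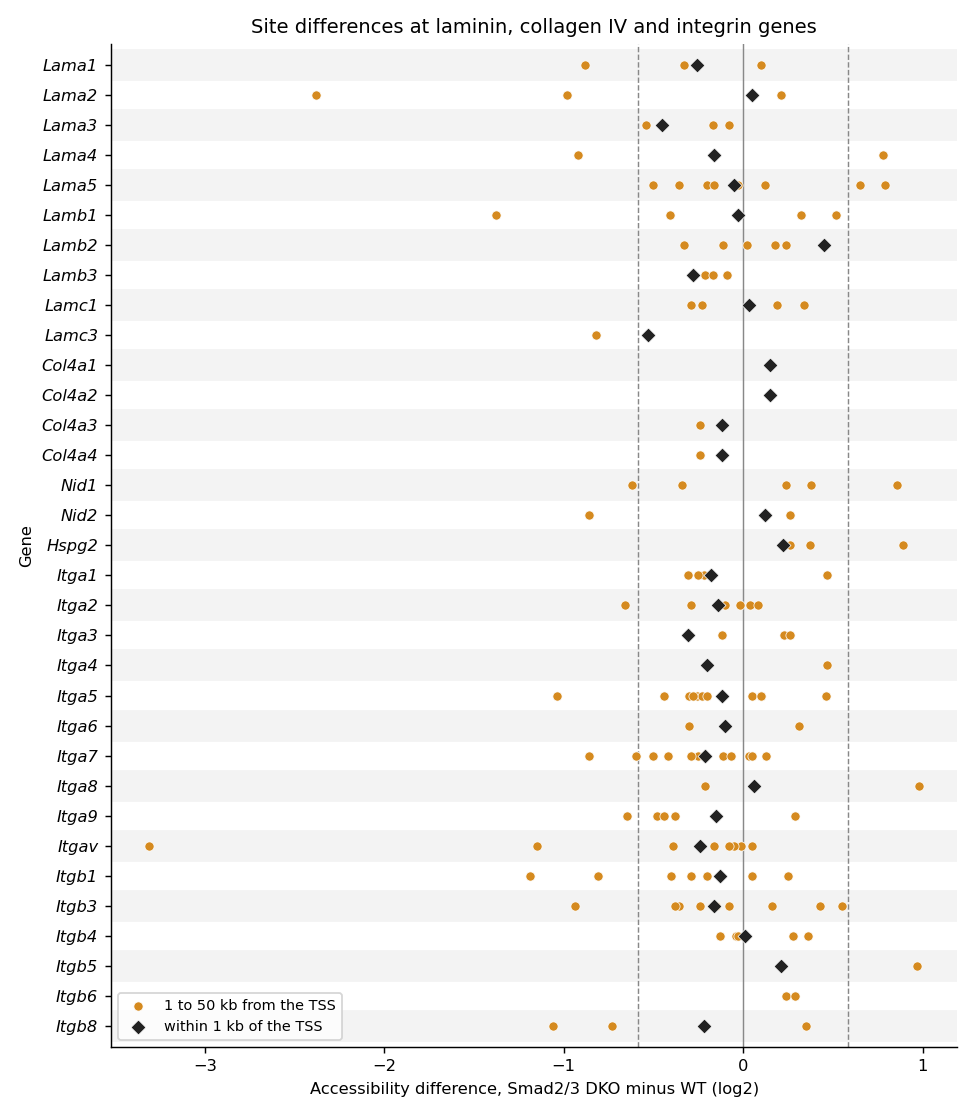
Difference in accessibility, Smad2/3 DKO minus WT on the log2 scale, for each site within 50 kb of each gene's TSS. Diamonds are promoter sites within 1 kb, circles are flank sites from 1 to 50 kb, dashed lines mark a fold of 1.5, and sites shared by 2 genes are drawn at both. All promoter sites lie between the dashed lines, and 20 flank sites lie to the left of them and 7 to the right.

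Promoters and flanks differed in how many sites passed the fold. None of the 29 promoter sites did in either direction, where 4.17% of the 15001 promoter sites of all genes were lower and 3.69% were higher. Member promoter sites had a median mean concentration of 7.55, against 6.71 for all promoters. They were also wider, with a median of 1070 bp against 750 bp, and concentration grows with width. Per kb of site, their median was 148 normalized reads in WT and 145 in DKO, against 133 and 134 for all promoters. At concentrations of at least 7, where 18 of the member promoters lie, 0.555% of all promoter sites were lower and 0.216% higher. Below 4, where 2 of them lie, the shares were 23.1% and 21.9%. With 29 sites, a count of 0 is read as no result about these promoters. The differences ran from -0.53 at Lamc3 to 0.45 at Lamb2, the largest being a fold of 1.44. Their median was -0.13, against 0.01 for all promoters, and 20 of the 29 (69.0%) were below 0, against 48.2% of all promoters. These are shifts of less than the fold used to count sites, and without values per library their error is unknown.

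Of the 131 flank sites, 20 (15.3%) were lower and 7 (5.34%) were higher in DKO. Over the flank sites of all genes, which lie over 1 kb from every TSS, 16.7% were lower and 9.92% were higher. Of the member flank sites, 22 lie within 1 kb of the TSS of some other gene, and none of those passed the fold. The 109 that lie away from any TSS held all 20 lower (18.3%) and all 7 higher sites (6.42%). The share of lower sites at members was thus close to the background under both counts, and that of higher sites was below it. Member flank sites had a median mean concentration of 5.06, against 4.74 for all flank sites, and stronger sites pass the fold less often. With so few higher sites, their lower share is not read as a result about these genes. Of 67 intronic flank sites, 10 (14.9%) were lower and 4 (5.97%) higher. Of 46 intergenic ones, 10 (21.7%) were lower and 1 (2.17%) higher. Exonic flank sites numbered 18, and 2 of them were higher and 0 lower. Shares over all sites of each placement were not computed, so these counts are not read as a result about the members. Flank sites whose nearest TSS was the member's own numbered 80, with 17 lower (21.2%) and 4 higher (5.0%). The other 51, nearer to a neighbouring gene, had 3 lower and 3 higher (5.88% each). These 51 include the 22 sites near another gene's TSS, whose median mean concentration was 6.51, against 4.88 at the 80. The sets thus differ in level as well as in nearest gene.

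**Figure D2:**
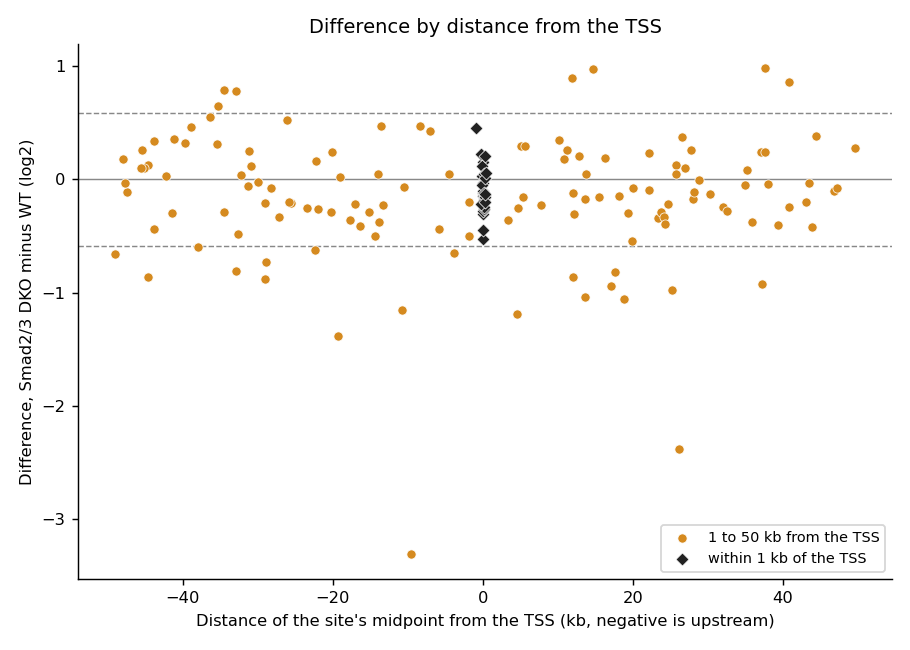
Difference in accessibility, Smad2/3 DKO minus WT on the log2 scale, of the 160 member sites against the distance of the site's midpoint from the member's TSS in kb. Diamonds are promoter sites, circles are flank sites and dashed lines mark a fold of 1.5, and the 2 sites lowest in DKO relative to WT lie 9552 bp upstream of Itgav and 26197 bp downstream of the Lama2 TSS.

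The share of sites past the fold was larger at weak sites. At a mean concentration of at least 4, 13 of 114 member flank sites (11.4%) were lower and 3 (2.63%) were higher, beside 12.8% and 6.45% of all flank sites at that level. Below it, 7 of 17 member flank sites were lower and 4 were higher, and over all flank sites this low the shares were 28.8% and 20.8%. Sites this weak pass the fold often in both directions, and their values are given as such below.

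**Figure D3:**
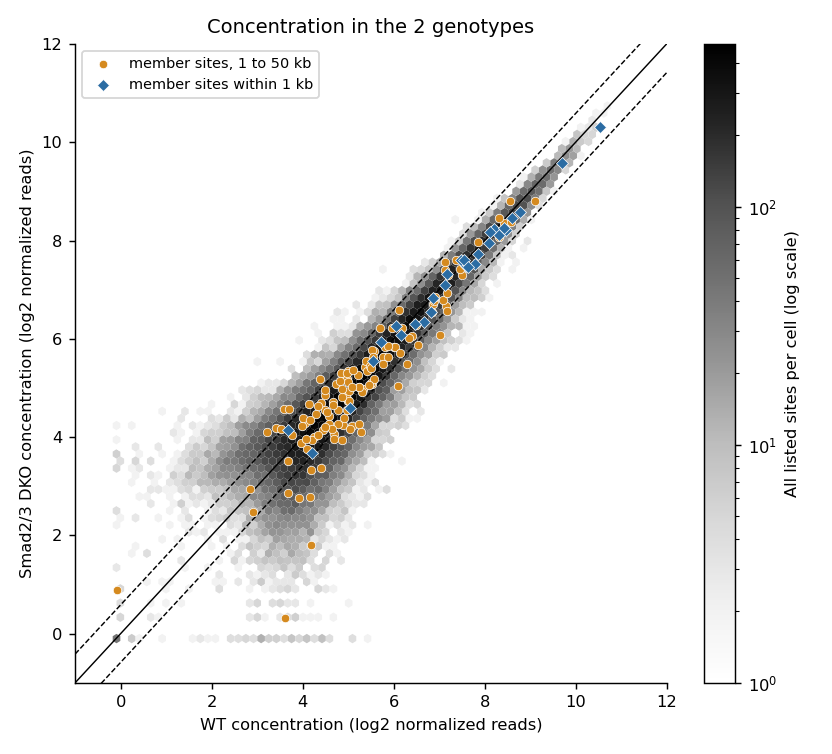
Concentration in WT (horizontal) and Smad2/3 DKO (vertical) EpiLCs, in log2 normalized reads. Grey cells show the number of all 75880 listed sites on a log scale, diamonds are the 29 member promoter sites, circles the 131 member flank sites, the solid line is equality and dashed lines a fold of 1.5, and the spread between genotypes is widest below a concentration of 4.

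The laminin genes had 10 promoter sites, all within the fold, and 37 flank sites, of which 6 were lower and 3 higher. For this and each later group, the shares over the flank sites of all genes are 16.7% lower and 9.92% higher. At the promoters of all genes they are 4.17% and 3.69%. Lama1, Lamb1 and Lamc1 encode the chains of the laminin that is made earliest in the embryo. Levels of different promoters were compared per length, as normalized reads per kb of site. The Lama1 promoter site, with 205 reads per kb in WT and 172 in DKO, differed by -0.26 on the log2 scale. The Lamc1 promoter had 174 and 178 reads per kb (difference 0.03), and the Lamb1 promoter had 116 and 114 (difference -0.03). All 3 promoters were thus within the fold.

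Flank sites of these genes differed more. An intergenic site on chromosome 17 (67668030 to 67668390), 29055 bp upstream of Lama1, had a concentration of 5.04 in WT and 4.16 in DKO, a difference of -0.88. The surroundings of Lama1 were also lower, since the 47 sites from 50 kb to 1 Mb around it had a median difference of -0.33, the lowest median around any member. At Lamb1, a weak intergenic site 19268 bp upstream had 4.16 in WT and 2.78 in DKO (difference -1.38), while a site 26158 bp upstream was within the fold, with 5.71 and 6.23. The 4 flank sites of Lamc1 lay between -0.29 and 0.34.

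Lama2, the alpha chain of muscle and nerve basement membranes, had a wider range of differences than any other laminin gene, from -2.38 to 0.21. Its promoter had 226 reads per kb in WT and 234 in DKO (difference 0.05). The intronic site shown above, 25242 bp into the gene on chromosome 10 (27591470 to 27591930), had a concentration of 5.24 in WT and 4.26 in DKO, a difference of -0.98. A second intronic site 26197 bp from the TSS (27590610 to 27590880) had 4.19 and 1.81, a difference of -2.38 with a mean under the limit of 4. A further intronic site, at 12842 bp, was within the fold, with 4.97 in WT and 5.18 in DKO. The lower sites of Lama2 are neighbours, and the 72 sites around the gene had a median difference of 0.04.

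Lama4, the alpha chain of vessel walls, and Lama5, a chain found in most adult basement membranes and used as a culture substrate for pluripotent stem cells, had higher sites as well. At Lama4 an intronic site at 37265 bp (chromosome 10, 39002550 to 39003010) had 4.86 in WT and 3.94 in DKO (difference -0.92), and a weak intergenic site 32885 bp upstream had 3.41 and 4.19 (difference 0.78). Near Lama5, a site 34481 bp upstream (chromosome 2, 180260100 to 180260580) had 4.39 and 5.18, a difference of 0.79, and a weaker one at 35256 bp had 3.52 and 4.17, a difference of 0.65. Both lie in exons of Cables2, a neighbouring gene. The Lama5 site nearest to its promoter, 1791 bp upstream, was within the fold, with 7.16 in WT and 6.66 in DKO. The promoters themselves differed by -0.16 at Lama4 (7.63 in WT, 7.47 in DKO) and by -0.05 at Lama5 (7.14 and 7.09).

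Lama3 and Lamb3, chains of the laminin of skin and other stratified epithelia, had no site past the fold, although all 4 sites of each were below 0. The Lama3 promoter had a concentration of 5.05 in WT and 4.60 in DKO (difference -0.45), and the Lamb3 promoter 6.83 and 6.55 (difference -0.28). Around Lamb3 the median difference of 111 sites was -0.26. Lamc3, a further gamma chain, had a weak promoter with 4.21 in WT and 3.68 in DKO (difference -0.53) and a weak intronic site with 3.68 and 2.86 (difference -0.82). Lamb2, the beta chain of the neuromuscular junction and the kidney filter, had a site centred 912 bp upstream of its TSS with 3.69 and 4.14 (difference 0.45), and its 6 flank sites lay at or near TSSs of neighbouring genes, between -0.33 and 0.24.

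Collagen IV had few sites. Col4a1 and Col4a2, the chains of nearly all basement membranes, are transcribed in opposite directions from 1 promoter, and the site that covers it on chromosome 8 (11312150 to 11313490) was their only site within 50 kb. It had a concentration of 7.17 in WT and 7.32 in DKO, a difference of 0.15, and 108 and 119 reads per kb. Col4a3 and Col4a4, chains of the kidney glomerulus, likewise share a promoter, with 7.60 and 7.48 (difference -0.12). Their flank site, in an intron of Col4a4, had 5.88 and 5.64 (difference -0.24). No collagen IV site was past the fold.

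Among the proteins that link the networks, no promoter was past the fold, and of 11 flank sites 2 were lower and 2 higher. The shares over the flank sites of all genes were 16.7% and 9.92%. Nid1 had no site within 1 kb of its TSS. An intergenic site 22337 bp upstream (chromosome 13, 13415110 to 13415420), nearer to Gpr137b, had 4.68 in WT and 4.06 in DKO (difference -0.62), and an intronic site at 40768 bp (13478180 to 13478560) had 3.71 and 4.57 (difference 0.86). Nid2 had a promoter with 7.49 and 7.61 (difference 0.12), and a weak intergenic site 44637 bp upstream with 4.19 and 3.33 (difference -0.86). At Hspg2, the gene of perlecan, all 4 sites were above 0. Its promoter had 5.72 in WT and 5.94 in DKO (difference 0.22), and a weak intronic site at 11862 bp had 3.21 and 4.10 (difference 0.89), where the 50 sites around the gene had a median of -0.12.

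Integrin genes held most of the sites, 15 at promoters and 82 in flanks. None of the promoters was past the fold, and 12 flank sites were lower (7 at alpha and 5 at beta chain genes) and 2 higher. Over the flank sites of all genes, 16.7% were lower and 9.92% were higher. The integrin promoters also had the highest levels per length. The Itgb8 promoter had 712 reads per kb in WT and 612 in DKO, and the Itgb1 promoter had 555 and 507. They were followed by Itga7 with 347 and 300.3, Itga4 with 328 and 286, and Itga2 with 271 and 246. The highest laminin promoter, at Lama2, was the ninth in WT and the sixth in DKO. In WT the lowest integrin promoter was that of Itgb5, with 66.3 reads per kb and 76.6 in DKO, and whether neighbours in this order differ cannot be said, since no spread is known.

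**Figure D4:**
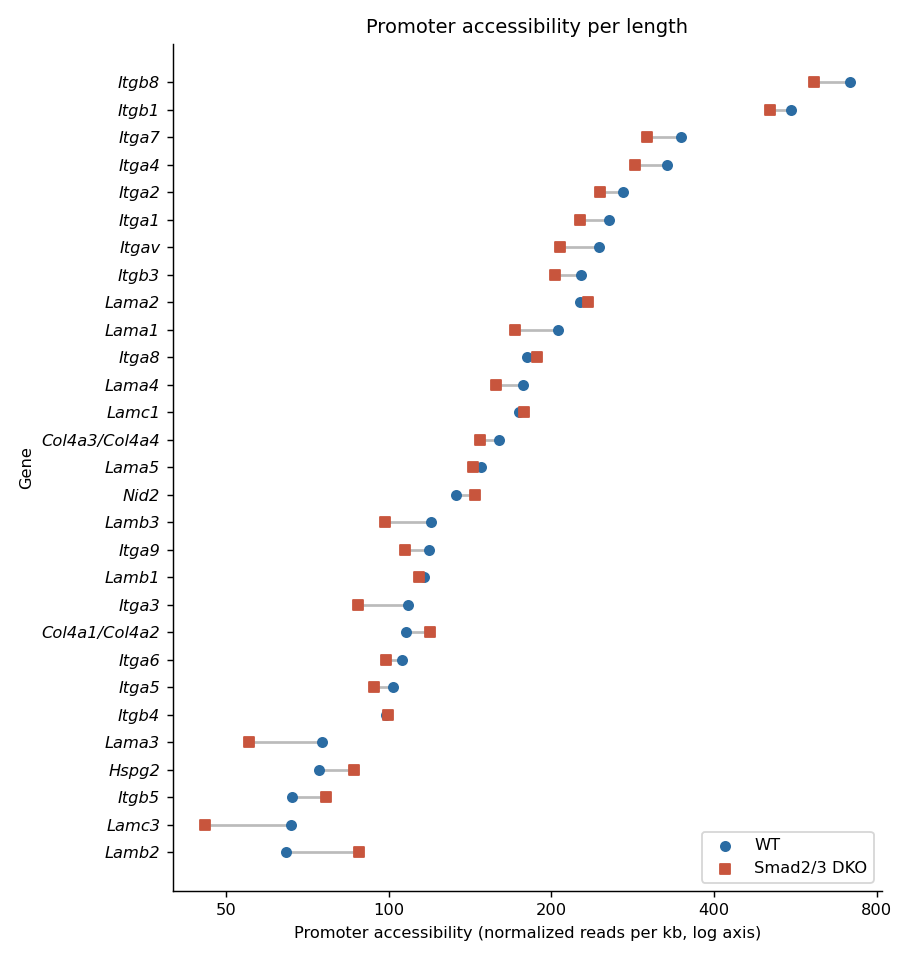
Accessibility of the 29 member promoter sites in normalized reads per kb of site on a log axis, in WT (circles) and Smad2/3 DKO (squares), ordered by the WT level. A grey line joins the genotypes, the 8 highest WT levels belong to integrin genes, and the widest gaps relative to the level are at Lamc3, Lama3 and Lamb2, which lie near the low end of the order.

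Itgb1 encodes the beta chain shared by the laminin, collagen and most fibronectin receptors. Its promoter site (chromosome 8, 128685190 to 128686700) had a concentration of 9.71 in WT and 9.58 in DKO, a difference of -0.13. The intronic site shown above (128689910 to 128690460), 4531 bp from the TSS, had 5.29 and 4.10, a difference of -1.19, which was the largest of any member site with a mean of at least 4. An intergenic site 32929 bp upstream (128652340 to 128653110) had 6.29 and 5.48, a difference of -0.81. A neighbouring and stronger site, 31119 bp upstream, went the other way within the fold, with 8.56 in WT and 8.81 in DKO. The 80 sites around Itgb1 had a median of -0.22.

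The chains that pair with alphav followed. Itgb8, part of a receptor that activates latent TGF-beta, had the highest promoter level of all members, with 10.54 in WT and 10.32 in DKO (difference -0.22). Its intronic site at 18826 bp (chromosome 12, 119219170 to 119219730) had 6.09 and 5.03 (difference -1.06). An intergenic site 28894 bp upstream (119267030 to 119267310) had 4.69 and 3.96 (difference -0.73), and its remaining site, intronic at 10216 bp, had 4.73 and 5.08. Itgb3, of the vitronectin receptor of osteoclasts, had a lower intronic site at 17035 bp (chromosome 11, 104624750 to 104625320), with 7.02 and 6.08 (difference -0.94). The next intronic site, at 18200 bp, had 5.79 and 5.64, and upstream a strong site at 7050 bp had 7.13 and 7.56, within the fold. The Itgb3 promoter had 8.10 and 7.94, a difference of -0.16.

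Itgb5, another vitronectin receptor chain, was the integrin gene with a higher site at a mean of at least 4. This site, in an intron at 14700 bp (chromosome 16, 33844230 to 33844500), had 3.60 in WT and 4.57 in DKO, a difference of 0.97, and the Itgb5 promoter had 6.05 and 6.26 (difference 0.21). The 30 sites around it had a median of 0.26, the highest around any member. Itgb6, an epithelial chain that also activates latent TGF-beta, had no promoter site, and its 2 intronic sites differed by 0.24 and 0.29. Itgb4, which pairs with alpha6 in the hemidesmosomes of epithelia, had a promoter difference of 0.01 and flank differences from -0.13 to 0.36.

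At Itgav itself, the alphav chain, the promoter had 8.46 in WT and 8.22 in DKO (difference -0.24). The pair of intergenic sites with the Smad palindrome lay 10742 bp (chromosome 2, 83713480 to 83713830) and 9552 bp (83714720 to 83714970) upstream. The former had a concentration of 3.91 in WT and 2.76 in DKO (difference -1.15). The latter had 3.62 in WT and 0.31 in DKO, a difference of -3.31 that was the largest at any member. Both have a mean below 4, and the DKO value of the latter is close to the lowest value listed, so its fold is imprecise. The other 7 flank sites of Itgav lay between -0.39 and 0.05, and the 56 sites around the gene had a median of -0.13.

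**Figure D5:**
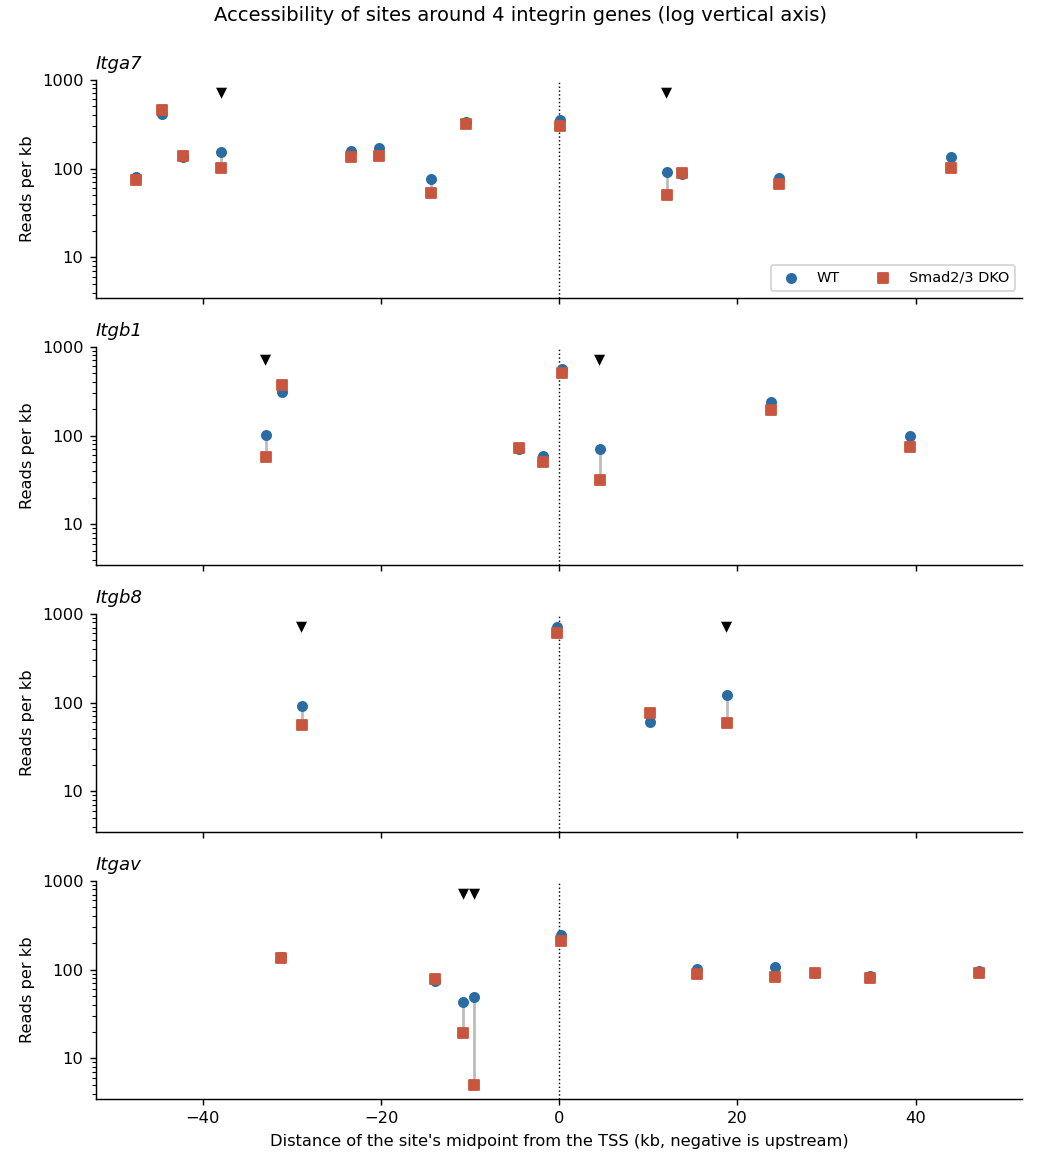
Normalized reads per kb of each site within 50 kb of the TSS of Itga7, Itgb1, Itgb8 and Itgav, in WT (circles) and Smad2/3 DKO (squares), on a log vertical axis, against the distance from the TSS in kb. Grey lines join the genotypes and downward triangles mark sites lower in DKO past a fold of 1.5, of which each gene has 2, and at Itgav they are adjacent, with 19.4 and 4.96 reads per kb in DKO.

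Of the alpha chains that bind laminin, Itga7 had the most sites of any member, 13, of which 2 were lower. An intronic site at 12052 bp (chromosome 10, 128945680 to 128946050) had 5.08 in WT and 4.22 in DKO (difference -0.86). A site 37908 bp upstream (128895440 to 128896370), which is 4187 bp from the TSS of Gdf11, a TGF-beta family ligand, had 7.17 and 6.57 (difference -0.60). The Itga7 promoter had 8.32 and 8.11 (difference -0.21). Itga6 and Itga3, the other laminin-binding chains, had no site past the fold, with promoter differences of -0.10 at Itga6 and -0.31 at Itga3.

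Itga1 and Itga2, the collagen-binding chains, are neighbours on chromosome 13. An Itga1 intron holds a site (114980830 to 114981310), 48970 bp upstream of Itga2, that had 6.53 in WT and 5.87 in DKO (difference -0.66). The other flank sites at Itga2 lay between -0.29 and 0.08. Those of Itga1 lay between -0.31 and 0.47, and the promoters differed by -0.18 at Itga1 and -0.14 at Itga2. The sites around these genes had medians of -0.22 at Itga1 and -0.25 at Itga2.

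The remaining alpha chains bind fibronectin and related ligands. Itga5, the main fibronectin receptor chain, had 12 sites, 1 of them lower, an intronic site at 13661 bp (chromosome 15, 103353040 to 103353220) with 4.41 in WT and 3.37 in DKO (difference -1.04, mean 3.98). Its promoter had 7.85 and 7.73. At Itga9, an intergenic site 3854 bp upstream (chromosome 9, 118602720 to 118602990) had 4.89 and 4.24 (difference -0.65), and 3 further flank sites were between -0.48 and -0.38. The Itga9 promoter had 6.46 and 6.31 (difference -0.15). Itga4, a receptor chain for fibronectin and VCAM1, had a promoter difference of -0.20 and 1 flank site at 0.47. Itga8 had a promoter difference of 0.06, and a site counted as higher in its intron at 37604 bp had -0.09 in WT, the lowest WT value listed for any site, and 0.89 in DKO, so no fold is given for it.

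Across the 131 member flank sites, the letters of FoxH1, the Smad2/3 partner (TGTGGATT), were found in 0, where 1.17% of all flank sites held them. The octamer ATGCAAAT, bound by Oct4, was in 4 member flank sites (3.05%, all flank sites 3.13%), of which only that 32929 bp upstream of Itgb1 was lower in DKO. Letters of Otx2 were in 9.16% of member flank sites and 9.55% of all flank sites, the E-box in 25.2% and 28.0%, the forkhead letters in 4.58% and 4.49%, and the Sox letters in 15.3% and 13.7%. Those of Tead were in 19.8% and 18.7%, those of AP-1 in 13.7% and 9.40%, and those of Essrb in 2.29% and 0.581%, the last being 3 sites, 2 of them at Nid1 and 1 at Itgav. Of the 20 lower sites, 7 held Tead letters, 5 the E-box, 4 Sox letters and 4 AP-1 letters. Otx2 letters were in 2, Essrb letters in 1 and forkhead letters in 1, the printed Itgb3 site. Of all flank sites with Tead letters 16.7% were lower, the share over all flank sites. With Essrb, Sox, AP-1 and forkhead letters it was 16.8%, 16.9%, 17.1% and 17.8%. With Otx2 letters and the E-box it was 19.3% and 20.5%. The octamer and FoxH1 letters had larger shares, 24.3% of 1023 and 26.7% of 382 flank sites of all genes. FoxH1 letters followed by A contain those of Otx2.

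Other genes of the same pathway, taken from 3 lists, give a setting for these values. Of 11 matrix and basement membrane partners, none of 14 promoter sites was past the fold, and of 51 flank sites 3 were lower and 7 higher. For these lists too, the shares over all genes are 4.17% lower and 3.69% higher at promoters and 16.7% lower and 9.92% higher in flanks. At Fn1, the gene of fibronectin, an intronic site at 7114 bp had 4.69 in WT and 2.83 in DKO, and one 20421 bp upstream had 5.62 and 6.36. At Dag1, the gene of the laminin receptor dystroglycan, a site 32892 bp upstream had 3.81 and 5.56, and it lies 55 bp from the TSS of Amt. Of 8 collagen processing enzymes, 7 had sites, with none of 6 promoter sites past the fold and 2 of 25 flank sites lower and 5 higher. Of 16 integrin adaptors and associated proteins, 2 of 17 promoter sites were higher, those of Bcam, a laminin receptor (4.86 in WT, 5.48 in DKO), and of Tns1, the adaptor tensin (4.56 and 5.17), and of 82 flank sites 11 were lower and 6 higher. Among the lower sites was one 10786 bp upstream of Parva, which links integrins to actin, with 4.93 and 3.71. No promoter in any of these lists was lower in DKO past the fold.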

How the data were processed

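ATAC-seq libraries of 3 WT and 3 Smad2/3 DKO differentiations, each from 75000 cells in 2 technical replicates, and 1 Tn5-treated genomic DNA control were sequenced as 75 bp paired-end reads. The authors aligned reads to mm10 with bowtie2, dropped non-unique and blacklisted reads, removed duplicates with SAMtools, called sites with DANPOS2 and compared genotypes with DiffBind. Versions, the normalization and any shift of read ends for Tn5 are not given in the sources used here. A shift would move site borders by a few bases. The authors deposited log2 concentrations, 1 mean over both genotypes and 1 within each, rounded to 0.01. The other 3 value columns hold the authors' own comparison (fold, p-value and FDR) and were not used.

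From these log2 values the difference DKO minus WT was computed at each of 75880 sites, with no test, since the table used gives no value per library. Paired analysis and leave-one-out values need such values. Groups came from the sample labels. Sites were placed on 31647 TSSs of 45756 curated RefSeq transcripts of GRCm38.p6, the same build. Background flank sites lie from 1 to 50 kb of the nearest TSS. Values are given for every promoter site and for every site past a fold of 1.5 with a mean concentration of at least 4, and weaker sites are named as weak. Sequences followed the rule stated with them. Motif strings were searched in the central 300 bp on both strands. The 3 lists of other genes are matrix partners, collagen processing enzymes and integrin adaptors. The members and lists were chosen with earlier results of these data known. Alternatives changed the fold, the level, centring, the distance, the gene assignment and the TSS set. The code was tested on simulated data. Python 3.11.15, numpy 2.4.6, pandas 2.3.3 and matplotlib 3.10.9 were used.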

Additional observations from a re-analysis of the deposited data

How the results depend on the processing

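The table holds 1 mean per genotype, so the depth and the spread between differentiations limit every value and no interval can be given. No paired analysis was possible because the table holds no value per library, and leaving out each replicate was not run for the same reason. In all promoter settings, none of the promoter sites passed the fold. Since the largest promoter fold was 1.44, a fold of 2, a limit of 500 bp and the mean limit could give only 0. Only the limit of 2 kb and the centring could have given another count. The median difference of promoter sites, -0.13 as reported, was -0.14 with promoters within 500 bp or within 2 kb and -0.05 after centring on the median of all sites. That of flank sites, -0.12 as reported, was -0.11 with promoters within 500 bp, within 2 kb or at a mean concentration of at least 4, and -0.04 after centring. Of all member sites, 20 lower and 7 higher as reported, a fold of 2 left 7 lower and 0 higher, and so did it in the flanks. At a mean concentration of at least 4 there were 13 lower and 3 higher, also in the flanks. A 10 kb window gave 3 lower and 0 higher of 44 sites and a 100 kb window 38 lower and 15 higher of 275. Centring on the sites from 50 kb to 1 Mb around each gene gave 16 lower and 11 higher, and keeping sites nearest to the member's TSS gave 17 lower and 4 higher. Wider, narrower or stricter choices test more or fewer sites by construction, and for the centring the cause was not tested. Of 46 alternative values, 25 kept within 1.5 times the count or at the same median and 21 did not. The 25 include promoter counts that stayed at 0. Counts have no direction, so only the medians could have reversed, and 0 did. Counting flanks only away from every TSS was chosen after seeing the data and left 20 lower and 7 higher.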
